A study of Mus musculus with 23 samples.

Results

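The genes described here are 10 regulators of drug and bile acid handling in mouse liver: the nuclear receptors Nr1i2, Nr1i3, Rxra, Nr1h4, Nr0b2, Nr5a2 and Hnf4a, the ligand-activated factor Ahr, and 2 genes that serve the enzymes they control, Por and Alas1. They were chosen by name, and 9 of the 10 were matched to a probe set annotated with exactly 1 gene symbol; Por was not analysed here. The 9 genes have 12 probe sets among the 38385 of the array, and where a gene had more than 1, the brightest by mean signal over all arrays stands for it. Liver RNA was measured in 23 mice with 1 array each: 6 female knockouts (KO), 6 female wild types (WT), 6 male KO and 5 male WT. KO animals had lost P2ry13 (GPR86), which encodes an ADP-sensing member of the P2Y receptors, and WT animals carried it intact. The comparison asks how loss of this receptor changes liver transcripts. Strain, age, litter, diet, time of day, the deleted piece of the gene and any limit of the deletion to a cell type could not be taken from the labels or the design text.

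Nuclear receptors are transcription factors that bind DNA and, in many cases, a small ligand. PXR (encoded by Nr1i2) and CAR (Nr1i3) respond to foreign chemicals and raise cytochrome P450 and transporter genes in the liver, and the aryl hydrocarbon receptor (Ahr) does so for planar aromatic compounds. FXR (Nr1h4) binds bile acids and raises Nr0b2, which encodes SHP, a receptor without a DNA-binding domain that represses LRH-1 (Nr5a2) and HNF4A on bile acid synthesis genes such as Cyp7a1. RXRα (Rxra) is the dimer partner of PXR, CAR and FXR, and HNF4A keeps the hepatocyte programme running. Por encodes the reductase that passes electrons to microsomal P450 enzymes, and Alas1 encodes the first and rate-limiting enzyme of hepatic haem synthesis, which supplies their prosthetic group.

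CAR and SHP were the members whose transcripts differed between the sexes within a single genotype, so the 250 bases before their transcript starts are shown, from RefSeq promoters of GRCm38.p6. The Nr1i3 stretch lies at chr1:171213720-171213969 and the Nr0b2 stretch at chr4:133553126-133553375, both on the plus strand and both ending at the base before the annotated start. Capitals mark every match, on either strand, to 5 short motifs, which were chosen after the values had been seen.
Nr1i3: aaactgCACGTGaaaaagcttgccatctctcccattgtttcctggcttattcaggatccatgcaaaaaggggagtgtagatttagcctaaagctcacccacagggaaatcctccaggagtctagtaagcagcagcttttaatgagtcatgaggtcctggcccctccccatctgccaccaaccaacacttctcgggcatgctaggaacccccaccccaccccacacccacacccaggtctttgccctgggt
Nr0b2: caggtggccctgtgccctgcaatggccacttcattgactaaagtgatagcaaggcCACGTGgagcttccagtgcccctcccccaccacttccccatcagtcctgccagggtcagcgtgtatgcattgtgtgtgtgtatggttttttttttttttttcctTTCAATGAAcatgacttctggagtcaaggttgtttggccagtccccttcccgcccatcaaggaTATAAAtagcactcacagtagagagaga
The motifs searched were AGGTCA, the core hexamer of many nuclear receptors, which 14% of 32851 promoters hold in the same window; CAAGGTCA, the longer LRH-1 type site that contains it, in 1.33%; TTCNNNGAA, the spacing bound by STAT factors, in 7.02%; CACGTG, an E-box, in 6.02%; and TATAAA, the core letters of a TATA box, in 12.4%. Nr1i3 held a single match, the E-box that starts 244 bases before its transcript. Nr0b2 held an E-box at 195 bases, the STAT spacing at 91 bases and the TATA box at 28 bases before its start. Neither nuclear receptor motif was found in these windows. A match is a description of letters and not of a bound site, and the series holds no binding data.

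Signal is given as log2 of the deposited intensity. Over 4 probe sets of Y-linked genes, the 12 female arrays read 2.53 to 3.69, which shows the signal without transcript at those probe sets. All 9 members lay above this range on every array, the lowest member value being 5.59. The median linear intensity of an array was 19.5 to 21.1, and arrays correlated at 0.983 to 0.995 over all probe sets. The 5 measured hepatocyte markers (Alb, Ttr, Tat, Hpd and Asgr1) also lay above the background range on all arrays. P2ry13 averaged 5.15 ± 0.06 in female KO livers and 6.27 ± 0.17 in female WT livers (SD, n = 6 each), a difference of -1.12 on the log2 scale (limma adjusted p = 6.07e-09). It averaged 5.19 ± 0.11 in male KO livers (SD, n = 6) and 5.99 ± 0.22 in male WT livers (SD, n = 5), a difference of -0.80 (limma adjusted p = 2.12e-05). The genotype labels therefore match the targeted transcript, although the probe set's position relative to the deletion is not given. The KO averages of 5.15 and 5.19 still lay above the 2.53 to 3.69 read at the Y-linked probe sets. The cause of this remaining signal was not tested.

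**Figure D1:**
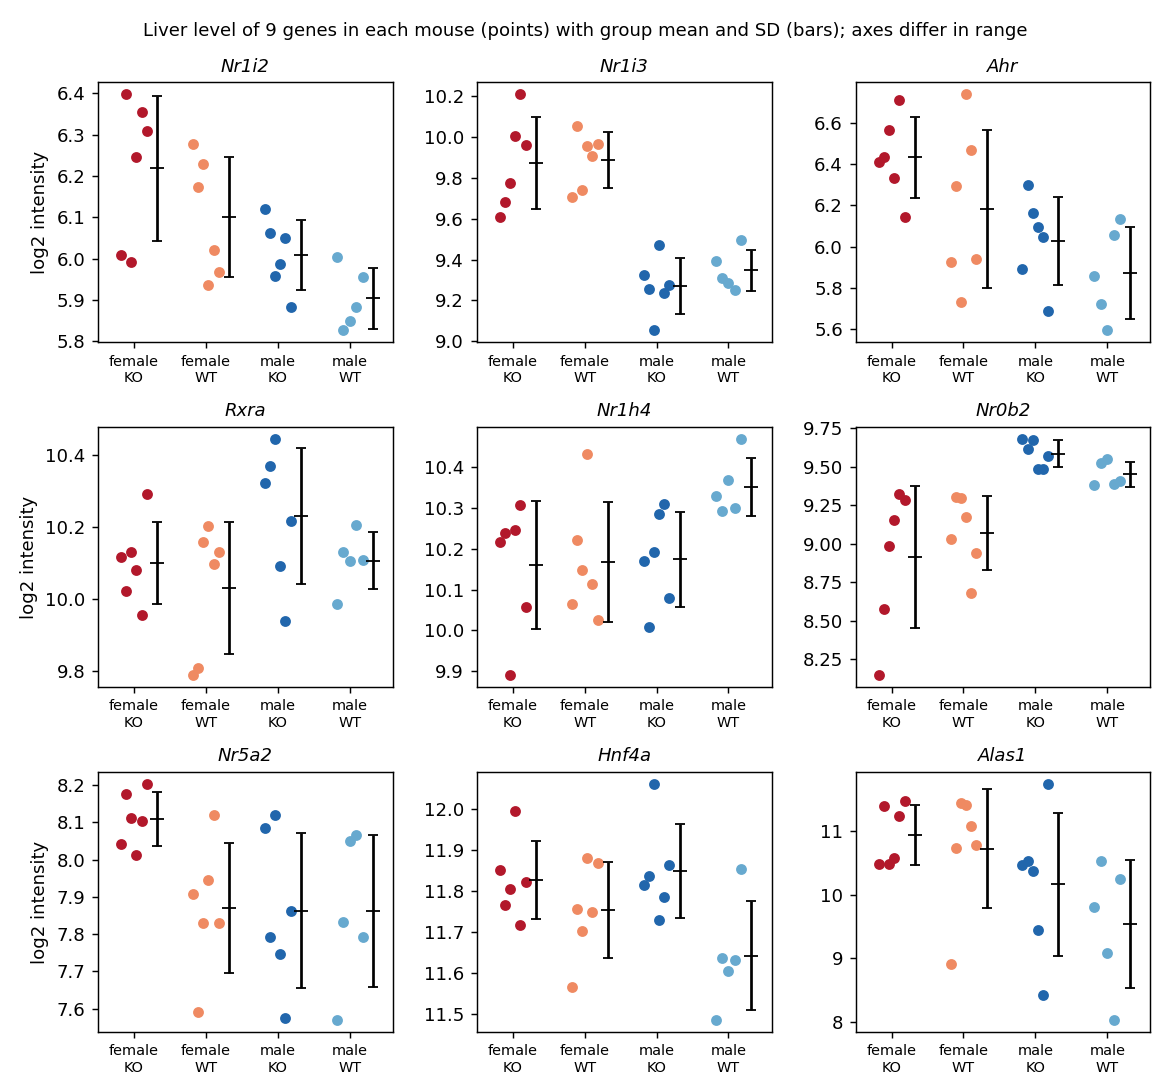
Log2 signal of the 9 measured genes on each of the 23 arrays, 1 panel per gene, with female KO, female WT, male KO and male WT from left to right; points are mice and bars are group means with SD. Nr1i3 is higher and Nr0b2 lower in every female than in every male, and Alas1 spreads from 8.03 to 11.74.

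None of the 9 genes passed in any comparison of KO with WT livers (limma, Benjamini-Hochberg adjusted p under 0.05 over all 38385 probe sets). In females 0.0547% of all probe sets passed, in males 0.0313%, and for the average of both sexes 0.0808%. The KO and WT values overlapped for all 9 genes in each sex, whereas 0.229% of all probe sets in females and 0.555% in males had groups without overlap. At an unadjusted p under 0.05, 1 member was reached in females, 2 in males and 1 for the average of the sexes, where 5.87%, 6.14% and 6.91% of all probe sets did so. The median log2 difference of the members, KO minus WT, was 0.07 in females and 0.12 in males, beside -0.01 and 0.00 for all probe sets.

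Among the sensors of foreign chemicals, Nr1i2 (PXR) differed between KO and WT by 0.12 in females (95% interval -0.04 to 0.28) and by 0.11 in males (-0.06 to 0.27). Nr1i3 (CAR) differed by -0.02 in females (-0.20 to 0.17) and by -0.08 in males (-0.27 to 0.12). Ahr differed by 0.25 in females (-0.03 to 0.53) and by 0.16 in males (-0.14 to 0.45). These intervals include 0 in both sexes, and the one that ends highest is that of Ahr in females. The shared partner Rxra differed by 0.07 in females and by 0.12 in males, with intervals that also include 0.

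In the bile acid circuit, Nr1h4 (FXR) lay between 9.89 and 10.31, median 10.23, in female KO livers and between 10.02 and 10.43, median 10.13, in female WT livers. In males it lay between 10.01 and 10.31, median 10.18, in KO livers and between 10.29 and 10.47, median 10.33, in WT livers. The male groups meet only at their edges, and their difference of -0.18 (95% interval -0.35 to -0.01) did not pass (limma adjusted p = 0.794). Nr0b2 (SHP) differed by -0.16 in females (-0.45 to 0.13) and by 0.13 in males (-0.17 to 0.44). The difference between these KO effects, -0.29, did not pass either (limma adjusted p = 0.980). The intervals of Nr0b2 rest on 1 spread shared by the 4 groups. Its SD was 0.46 in female KO and 0.24 in female WT livers, beside 0.09 in male KO and 0.08 in male WT livers. The male interval is therefore wider than the male values alone would give. Male KO values ran from 9.48 to 9.68 and male WT values from 9.38 to 9.55. Nr5a2 (LRH-1) ranged from 8.01 to 8.20, median 8.11, in female KO livers and from 7.59 to 8.12, median 7.87, in female WT livers. The female KO values were closely grouped near the top of the WT range, and the difference of 0.24 (95% interval 0.04 to 0.43) missed the threshold (limma adjusted p = 0.836). The second probe set of Nr5a2 read 0.04 in the same comparison, and the first read 0.00 in males.

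Hnf4a, the hepatocyte factor, was the member with the lowest unadjusted p in males and for the average of the sexes. It lay between 11.73 and 12.06, median 11.83, in male KO livers and between 11.49 and 11.85, median 11.63, in male WT livers. The highest WT liver lies within the KO range and the other 4 lie below it, and the difference of 0.21 (95% interval 0.05 to 0.36) did not pass (limma adjusted p = 0.719). In females it differed by 0.07 (-0.08 to 0.22). The average over the sexes was 0.14 (limma adjusted p = 0.643). Alas1, the haem synthesis gene, differed by 0.22 in females (-0.71 to 1.14) and by 0.63 in males (-0.34 to 1.59). These intervals are the widest of the 9 genes, and the one in males extends to a 3.02-fold higher level in KO livers. No member was shown to differ in its KO effect between females and males (0 of 9 passed, and 0 at an unadjusted p under 0.05). Of all probe sets 0.0104% passed for this difference, and 5.14% at the unadjusted level. Its 95% interval for Alas1, the widest of the 9, ran from -1.75 to 0.93.

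Of the markers of other tissues and cell types, 1 passed between KO and WT livers, for the average of the sexes. Fabp2, an intestinal fatty acid binding protein gene, differed by -0.43 (limma adjusted p = 0.0493), with -0.32 in females and -0.54 in males. The summed intensity of its list of 5 measured intestinal and pancreatic markers was 1124 to 1882 in female KO livers and 1647 to 2084 in female WT livers, and 1657 to 2078 in male KO livers and 2048 to 2512 in male WT livers. These ranges overlap in both sexes, and the other 4 markers of the list did not pass. The sum includes Fabp2, which at 9.30 to 10.44 on the log2 scale was with Cela1 (8.65 to 10.18) the brightest of the 5. It is therefore not separate from the Fabp2 difference. The part of this signal in the members' values was not tested.

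**Figure D2:**
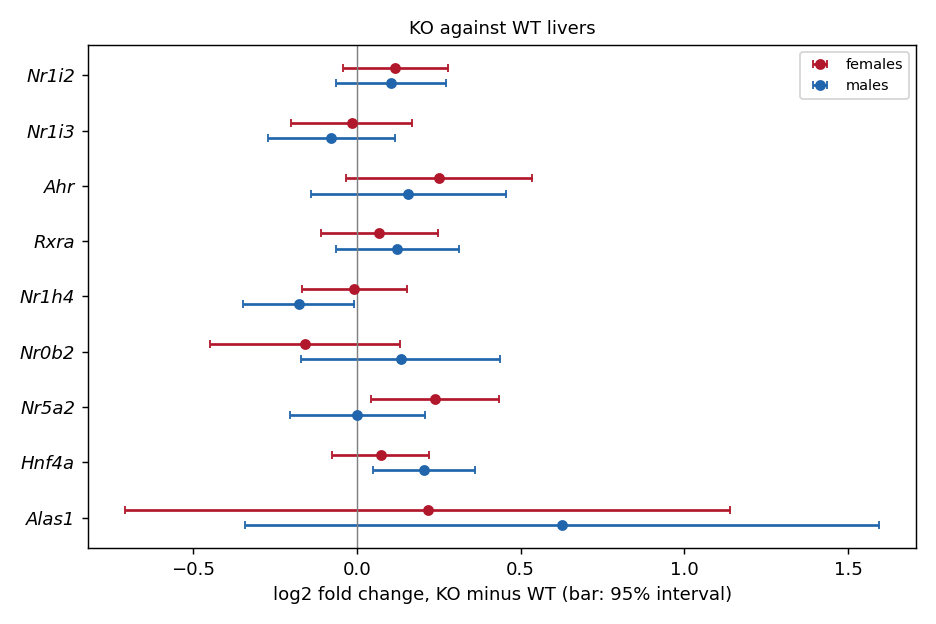
Log2 difference between KO and WT livers for each of the 9 genes, in females and in males, with 95% confidence intervals from the fit over all arrays; the line at 0 marks no difference. No gene passed the threshold, and the intervals of Alas1 are the widest.

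Some members passed between the sexes. In KO livers 2 of the 9 genes passed between females and males (1 higher and 1 lower), where 4.85% of all probe sets passed, 3.21% higher and 1.64% lower. In WT livers 1 of 9 passed, being higher in females, where 4.25% of all probe sets passed, 2.54% higher and 1.71% lower. For the average over the genotypes 4 of 9 passed (3 higher and 1 lower), where 10.5% of all probe sets passed, 5.96% higher and 4.55% lower. Groups without overlap were found for 2 members in each genotype and for the same 2 over all arrays, beside 3.38% of all probe sets in KO livers, 3.86% in WT livers and 1.22% over all arrays. In bulk liver, fewer cells of a type and less RNA per cell cannot be told apart.

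CAR was the member that passed in both genotypes. Nr1i3 lay between 9.61 and 10.21, median 9.87, in female KO livers and between 9.05 and 9.47, median 9.27, in male KO livers. It lay between 9.71 and 10.06, median 9.93, in female WT livers, and read 9.39, 9.31, 9.28, 9.25 and 9.50 in the male WT livers. Every female lay above every male, whatever the genotype. The difference was 0.60 ± 0.09 in KO livers (SE), or 1.52-fold higher in females (limma adjusted p = 4.51e-05), and 0.54 ± 0.09 in WT livers, or 1.46-fold higher in females (limma adjusted p = 0.00051). With any single array left out, the adjusted p stayed at or below 0.000224 in KO livers and 0.00247 in WT livers.

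SHP differed in the opposite direction. Nr0b2 lay between 8.15 and 9.33, median 9.07, in female KO livers and between 9.48 and 9.68, median 9.59, in male KO livers. It lay between 8.68 and 9.30, median 9.10, in female WT livers, and read 9.38, 9.53, 9.55, 9.39 and 9.41 in the male WT livers. All females lay below all males, and the female values were spread more widely, with an SD of 0.46 in female KO and 0.24 in female WT livers beside 0.09 in male KO and 0.08 in male WT livers. The fit shares 1 spread among the 4 groups, so its SE and p for Nr0b2 do not reflect these unequal SDs. The difference was -0.67 ± 0.14 (SE) in KO livers, 1.59-fold lower in females (limma adjusted p = 0.00298). In WT livers it was -0.38 ± 0.15, which did not pass (limma adjusted p = 0.168). The size of the sex difference was not shown to depend on genotype (limma adjusted p = 0.980 for the difference of -0.29). Averaged over the genotypes, Nr0b2 was 0.53 lower on the log2 scale in females (limma adjusted p = 0.000714).

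The other xenobiotic sensors showed smaller sex differences that passed only for the average over the genotypes. Nr1i2 lay between 5.99 and 6.40, median 6.28, in female KO livers, between 5.94 and 6.28, median 6.10, in female WT livers, and between 5.83 and 6.12 over both male groups. The female and male ranges overlapped, and the averaged difference of 0.20 ± 0.06 (SE) passed (limma adjusted p = 0.0187). With quantile normalization it was 0.17 and missed the threshold (limma adjusted p = 0.0523), and at 1.15-fold it is not called wherever a change of at least 20% is also required. Ahr lay between 6.14 and 6.71, median 6.42, in female KO livers, between 5.73 and 6.74, median 6.12, in female WT livers, and between 5.59 and 6.30 over both male groups. Its averaged difference of 0.36 ± 0.10 passed (limma adjusted p = 0.0196). The second Ahr probe set read 0.12 (limma adjusted p = 0.483), and the mean of the pair read 0.24 and did not pass (limma adjusted p = 0.088), so the Ahr call rests on 1 probe set.

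The partner and hepatocyte receptors did not pass between the sexes. The averaged difference was -0.10 for Rxra (95% interval -0.23 to 0.03), -0.10 for Nr1h4 (-0.22 to 0.02), 0.13 for Nr5a2 (-0.02 to 0.27) and 0.04 for Hnf4a (-0.06 to 0.15). These intervals keep the averaged sex difference of the 4 genes within 0.27 on the log2 scale in either direction. Within a single genotype the intervals reach farther. Nr5a2 differed by 0.25 in KO livers (0.05 to 0.44, limma adjusted p = 0.168), where its second probe set read 0.08. Nr1h4 differed by -0.18 in WT livers (-0.35 to -0.02, limma adjusted p = 0.243). The range of Hnf4a over all 23 livers was 11.49 to 12.06, or 1.49-fold, and its SD within groups, 0.11, exceeded that of 15.0% of all probe sets.

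Markers of other liver cells differed between the sexes too. All 6 measured Kupffer cell and macrophage markers were higher in females for the average over the genotypes, 5 of 6 in KO and 4 of 6 in WT livers, by 0.27 for Clec4f to 0.83 for Marco (averaged difference). Their summed intensity was 3810 to 4942 in female KO livers and 2617 to 3567 in male KO livers, and 3658 to 4386 in female WT livers and 2648 to 3419 in male WT livers. Averaged over the genotypes, 3 of 5 lymphocyte markers (Cd3g, Nkg7 and Ptprc) and 4 of 7 endothelial markers (Stab2, Cdh5, Clec4g and Oit3) were also higher in females. So were 3 of 7 stellate markers (Dcn, Col1a1 and Col3a1). The stellate marker Lrat (-0.29) and the lymphocyte marker Cd79a (-0.11) ran the other way without passing, and Cd3e read 0.02. Of all probe sets 10.5% passed for this average, 4.85% in KO and 4.25% in WT livers. Of the 5 cholangiocyte markers Sox9 was lower, and of the 5 intestinal and pancreatic markers Cela1 was lower. Of the hepatocyte markers 1 of 5, Hpd, was higher, and their summed intensity was 61159 to 64671 in female KO livers and 56201 to 59174 in male KO livers, and 58373 to 62772 in female WT livers and 56222 to 59728 in male WT livers. The cholangiocyte marker Cftr lay within the background range on all arrays, and Krt19, Cd3g, Cd79a and Des did on some, so that the difference of Cd3g is not well measured. The part of these cell types in the sex differences of the receptors was not tested.

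**Figure D3:**
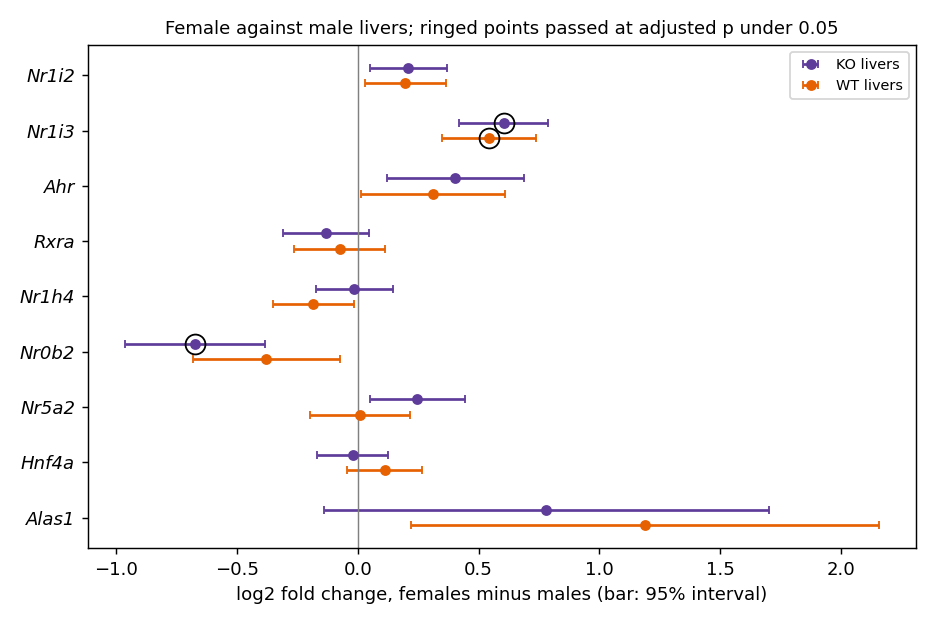
Log2 difference between females and males for each of the 9 genes, in KO and in WT livers, with 95% confidence intervals; ringed points passed the limma test. Nr1i3 lies above 0 in both genotypes, and Nr0b2 lies below 0 in both and passed in KO livers.

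Alas1 stood apart by its spread between mice. It lay between 10.48 and 11.48, median 10.91, in female KO livers and between 8.90 and 11.45, median 10.93, in female WT livers. It lay between 8.43 and 11.74, median 10.42, in male KO livers, and read 9.80, 10.53, 9.08, 8.03 and 10.25 in the male WT livers. The lowest and the highest liver differed 13.2-fold, and within a group the span was 1.99-fold in female KO, 5.85-fold in female WT, 9.97-fold in male KO and 5.66-fold in male WT livers. The SD within groups was 0.92 on the log2 scale, and only 18 of the 38385 probe sets had a larger one. The averaged difference between females and males was 0.98 (95% interval 0.32 to 1.65), or 1.98-fold higher in females, and just missed the threshold (limma adjusted p = 0.0513). Without the low female WT liver, replicate 1, it was 1.17 and passed (limma adjusted p = 0.0094), and the WT difference of 1.19 became 1.55 and passed (limma adjusted p = 0.0415). Over all arrays left out in turn, the adjusted p of the averaged difference lay between 0.0094 and 0.116.

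After Alas1, the members with the largest spread within groups were Nr0b2 and Ahr, each with an SD of 0.27, above that of 95.9% and 95.4% of all probe sets. Nr5a2 had an SD of 0.17, Nr1i3 of 0.16 and Rxra of 0.15. Nr1i2 and Nr1h4 each had 0.13. The receptors with the smallest spread therefore include FXR and HNF4A, and the most variable gene of the set is a haem enzyme.

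**Figure D4:**
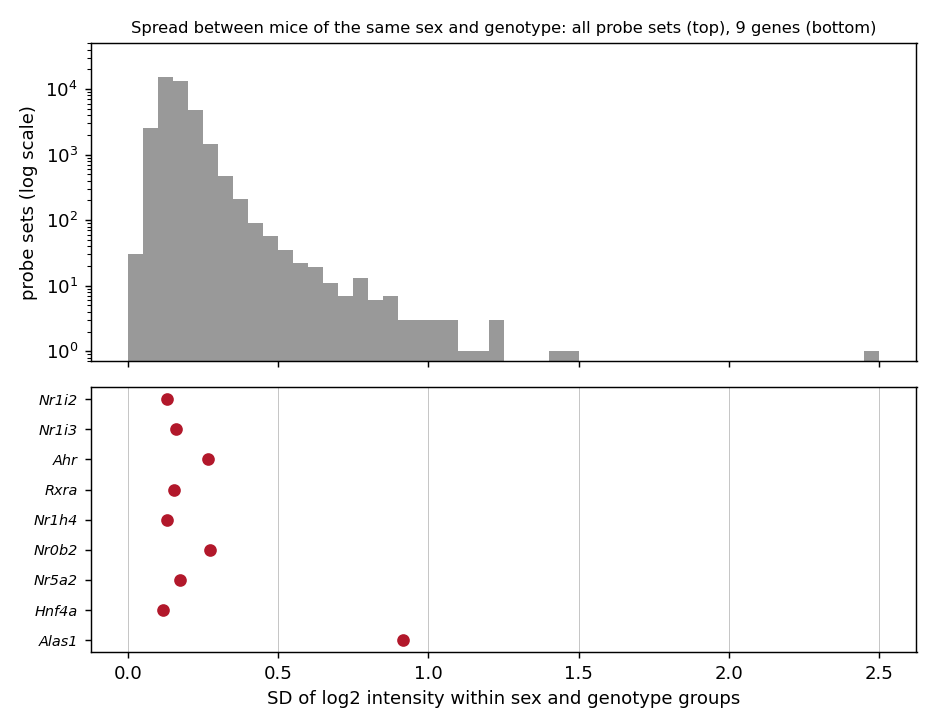
Within-group SD of log2 signal: all 38385 probe sets as a histogram on a log count axis, and the 9 genes as points. Alas1 at 0.92 lies far to the right, and Hnf4a at 0.11 lies among the smaller values.

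Genes that these receptors work with or regulate were read from 9 lists, which cover 110 measured genes. In KO against WT livers none of the 110 passed in females, in males, for the average of the sexes or for the difference of the KO effects (limma). At an unadjusted p under 0.05 there were 5 of the 110 in females and 6 in each of the other comparisons. Of all probe sets 5.87% in females, 6.14% in males, 6.91% for the average and 5.14% for the difference did so. The counts lie near these shares. The gene with the lowest p for the average was Scarb1, the HDL receptor and an LRH-1 target, with 0.18 (limma adjusted p = 0.584). The RXR partner Ppard followed with 0.27 and the coactivator Ncoa6 with 0.19 (limma adjusted p = 0.657 each). Cyp7a1, the rate-limiting enzyme of bile acid synthesis, differed by 0.53 in females and by -0.75 in males, with a difference between these of 1.28 that did not pass (limma adjusted p = 0.962). Over the 110 genes the averaged KO difference lay between -0.38 and 0.27.

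Between the sexes 36 of the 110 genes passed for the average over the genotypes, 24 higher and 12 lower in females, where 10.5% of all probe sets passed. In KO livers 16 were higher and 3 lower (4.85% of all probe sets passed), and in WT livers 12 were higher and 5 lower (4.25%). The lists were chosen with earlier results known, so these shares are a description. The list with the most passing genes was that of the CAR and PXR targets, of which 6 of 16 were higher and 2 lower in KO livers, and 5 were higher and 1 lower in WT livers. Their median sex difference was 0.22 in KO and 0.17 in WT livers, beside -0.02 and -0.01 for all probe sets. By direction alone, 10 of the 16 lay above 0 in KO and 9 in WT livers. For the average over the genotypes 7 of the 16 passed as higher in females and 5 as lower, so this list ran in both directions. For no gene of the lists was the sex difference shown to depend on genotype (0 of 110 passed).

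The P450 genes of the Cyp2b family led that list, and the part of CAR in their sex differences was not tested. Cyp2b9 averaged 11.75 ± 0.10 in female KO and 11.69 ± 0.11 in female WT livers, against 3.35 ± 0.24 in male KO and 3.34 ± 0.30 in male WT livers (SD; n = 5 in male WT and 6 in the others). The male values lie within the background range, so the difference is a bound. Against a floor of 3.69, Cyp2b9 was at least 266-fold higher in female KO than in male KO livers and at least 255-fold higher in female WT than in male WT livers. Cyp2b13 was 6.11 higher in female KO than in male KO livers and 5.86 higher in female WT than in male WT livers on the log2 scale. Cyp2b10 was 3.38 higher in KO and 3.49 higher in WT females than in males. These genes are close relatives, and signal shared between their probe sets cannot be told apart. Of the transporters, Slco1a4 was 1.35 higher in KO and 1.05 higher in WT females (limma adjusted p = 1.8e-05 and 0.00114), and Abcb1a passed as well with all male and some female values inside the background range. Cyp2c55 ran the other way, with -1.02 in KO and -0.86 in WT livers (limma adjusted p = 0.0071 and 0.043). The sulfotransferase gene Sult1d1 and the carboxylesterase gene Ces2a passed in KO livers, with 1.11 and -0.37 (limma adjusted p = 8.47e-05 and 0.00539).

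Of the 7 measured AhR targets, 1 passed in each genotype, where 4.85% of all probe sets passed in KO and 4.25% in WT livers. This gene was Nqo1, which encodes a quinone reductase. It was 1.20 higher in KO and 1.11 higher in WT females than in males (limma adjusted p = 2.48e-06 and 2.6e-05). The P450 gene Cyp1a2, the classical hepatic AhR target, was lower in females by 0.17 for the average over the genotypes (limma adjusted p = 0.032; log2 difference -0.17). The other 5 AhR targets did not pass.

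Of the 17 FXR, SHP and LRH-1 targets, 5 were higher and 1 lower in female than in male KO livers. Of all probe sets 3.21% passed there as higher and 1.64% as lower. In WT livers 2 of the 17 were higher and 2 lower in females, where 2.54% of all probe sets passed as higher and 1.71% as lower. Cyp7b1, the oxysterol hydroxylase of the alternative bile acid pathway, averaged 7.11 ± 0.56 in female KO livers and 9.89 ± 0.35 in male KO livers (SD, n = 6 each), a difference of -2.78. It differed by the same -2.78 in WT livers. Cyp7a1 was 1.65 higher in female KO than in male KO livers (limma adjusted p = 0.00171) and differed by 0.37 in WT livers, where the female values ranged from 7.88 to 10.33; the difference between these sex effects is the 1.28 given above, which did not pass. Slc10a1, the bile acid uptake transporter NTCP, was 0.41 higher in KO and 0.35 higher in WT females (limma adjusted p = 4.2e-05 and 0.000734). The heparan sulphate proteoglycan gene Sdc1 was 0.60 higher in KO and 0.41 higher in WT females. Cyp8b1, the sterol 12α-hydroxylase, was lower in WT females by a log2 difference of -0.72 (limma adjusted p = 0.00619). In KO livers it differed in the same direction by -0.46, which did not pass (limma adjusted p = 0.0854).

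**Figure D5:**
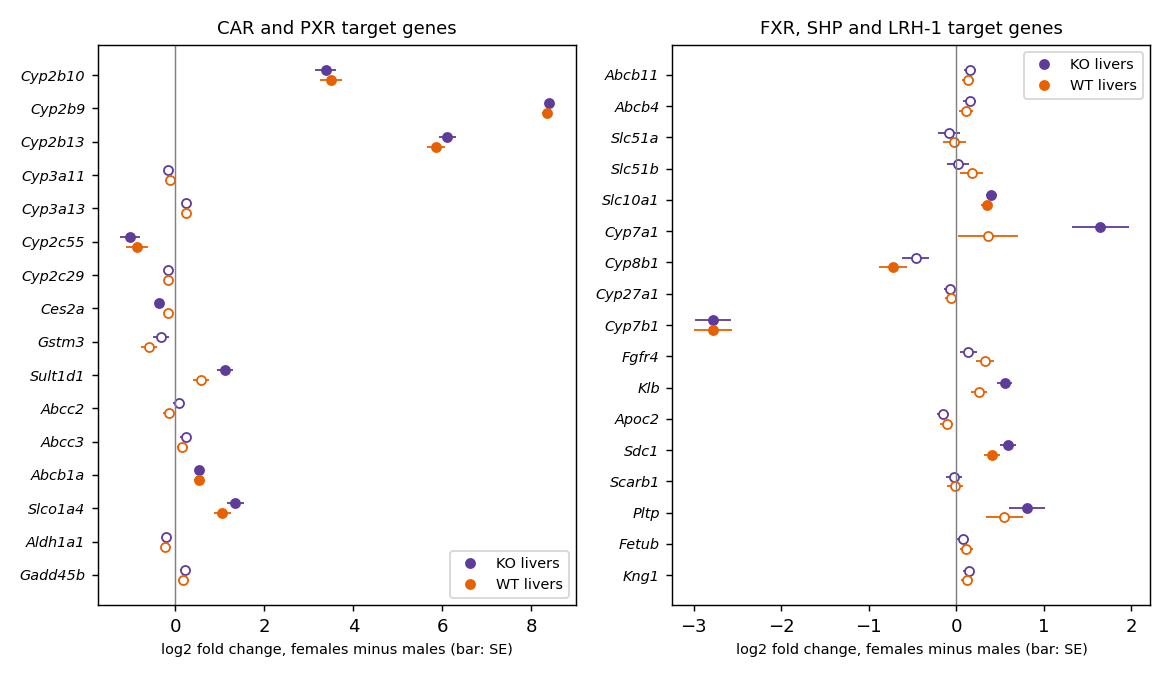
Log2 difference between females and males in KO and in WT livers for the measured CAR and PXR targets (left) and the FXR, SHP and LRH-1 targets (right), with SE as bars and filled points for genes that passed. Cyp2b9, Cyp2b13 and Cyp2b10 lie highest and Cyp7b1 lowest at -2.78; the male values of Cyp2b9 and Abcb1a lie within the background range, so their plotted differences are measured values and not bounds.

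In each of 4 further lists 1 gene, the same in both, passed in KO and in WT livers, where 4.85% and 4.25% of all probe sets passed. Of 11 RXR partner receptors and other RXRs it was Rxrg, which encodes RXRγ, at 0.52 higher in KO and 0.35 higher in WT females (limma adjusted p = 7.58e-05 and 0.0131). Of 13 coregulators and receptor chaperones it was Ppargc1a, which encodes the coactivator PGC-1α, at 0.56 higher in KO and 0.46 higher in WT females (limma adjusted p = 0.000197 and 0.00482). Among 14 orphan and other nuclear receptors it was Esr1, which encodes oestrogen receptor α, at 1.61 higher in KO and 1.75 higher in WT females (limma adjusted p = 7.81e-07 and 6.85e-07). Among 14 HNF4A targets and hepatocyte factors it was Apom, an apolipoprotein gene, at 0.25 higher in KO and 0.31 higher in WT females (limma adjusted p = 0.0263 and 0.00812). For the average over the genotypes, these lists gained the histone acetyltransferase gene Ep300 (0.22, limma adjusted p = 0.0497) and the hepatocyte factor Foxa2 (0.48, 0.0195). They also gained Nr2f1, a nuclear receptor gene on the HNF4A list (0.22, limma adjusted p = 0.0184). The others were the apolipoprotein gene Apoc3 (0.12, 0.0251) and the orphan receptor gene Nr4a1 (-0.25, 0.00793). The averaged counts were thus 1 of 11 RXR partners, 2 of 13 coregulators, 4 of 14 HNF4A targets and hepatocyte factors and 2 of 14 other receptors, where 10.5% of all probe sets passed.

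Alas1 has its own partners in haem metabolism, and none of the 10 measured haem genes passed between the sexes in either genotype (limma). For the average over the genotypes Hmox1, the haem oxygenase, was 0.42 higher and Blvrb, a biliverdin reductase, had a difference of -0.31 (limma adjusted p = 0.031 and 0.0155). A further list of 9 measured genes of electron transfer and P450 partners held the cytochrome b5 and ferredoxin systems, Pgrmc1 and Pgrmc2, and also Sqle and Hmox1, which encode enzymes that receive electrons from the Por product; Hmox1 is on the haem list too. Of the 9, 2 passed in WT livers, where 4.25% of all probe sets passed, and none in KO livers, where 4.85% did. Cyb5b, a cytochrome b5, and Fdx1, a mitochondrial ferredoxin, had differences of -0.28 and -0.27 (limma adjusted p = 0.0424 and 0.0253).

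Pairs of members were set against each other as deviations from their group means over the 23 arrays, 36 pairs in all. None passed after adjustment over the 36, and 4 had an unadjusted permutation p under 0.05, the adjusted values being 0.135, 0.184, 0.444 and 0.444. Rxra with Nr5a2 had a Pearson r of 0.62 and a Spearman rho of 0.53 (permutation p = 0.00374 and 0.0188), and r was 0.62 without the 2 arrays farthest out on Rxra. Rxra with Hnf4a had an r of 0.55 and a rho of 0.52 (permutation p = 0.0103 and 0.0194), and r was 0.45 without those arrays. Rxra with Alas1 had an r of 0.47 and a rho of 0.41 (permutation p = 0.0492 and 0.0698), and r was 0.07 without those arrays, so it rests on them. Nr1i2 with Hnf4a had an r of -0.42 and a rho of -0.55 (permutation p = 0.0494 and 0.0114), and r was -0.56 without the 2 arrays farthest out on Nr1i2.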

How the data were processed

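Liver RNA of 23 mice was amplified to biotin-labelled cRNA, according to the protocols in the labels. What was deposited is a linear intensity per probe set, made by the authors with RMA per the submitters' processing notes; neither its version nor its settings were stated there. They were converted to log2. Groups and replicate numbers came from the sample titles. Of 38385 probe sets, 24478 had 1 symbol in the platform annotation, 65 had several and 13842 are unnamed here; genes were named only from the first kind. Por is not analysed here.

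Group means were estimated for every probe set in a single linear model of the 23 arrays (limma 3.58.1, R 4.3.3, with 19 residual degrees of freedom and 7.61 added by its moderation). Benjamini-Hochberg adjustment ran over the whole array, with 0.05 as the threshold. Intervals are 95% intervals of that fit. Correlations used 100000 permutations within groups (Python 3.11.15, scipy 1.17.1), and figures matplotlib 3.10.9. The fit was tested on simulated data. The number of arrays limits the precision. The members and lists were chosen with earlier results of these data known. All members are named in each comparison, and in each list up to 4 passing genes with the smallest p, or 2 where none passed; not every gene this allows is printed. Cyp7a1, Abcb1a, Cyp2c55, Sult1d1, Ces2a and the markers were named outside this rule after their values were seen.

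The results were recomputed without dim probe sets (19192 above a mean of 4.35 stayed), with equal array medians, quantile normalization, weighted arrays, a robust variance trended on intensity, the replicate number as a block, averaged probe sets of a gene, only the compared groups in the fit, other thresholds, a plain test after the design text, and leaving out each array.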

Additional observations from a re-analysis of the deposited data

Results flagged for a closer look

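Each of the 9 genes was looked at in each of the 4 groups for a liver far from the others, 36 combinations in all, and 1 was found. Alas1 read 8.90 in female WT replicate 1. The nearest female WT liver read 10.74 and the highest 11.45, so the gap takes 0.721 of the group's range, where 0.625 is the 95% critical value of Dixon's test for a group of this size. At that level chance alone marks about 1 in 20 groups. Alas1 between KO and WT females was 0.22 with this liver and -0.15 without it.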

How the results depend on the processing

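With the plain test of the design text at an unadjusted p under 0.05, 5 members passed between the sexes in KO livers and 5 in WT livers, where 3 remained with a change of at least 20%, and 1, 2 and 1 passed between KO and WT in females, in males and for the average; with its p adjusted, the counts of members in KO against WT were 0. Of all 38385 probe sets, 6186 in KO and 6229 in WT livers passed the plain test between the sexes at an unadjusted p under 0.05. Between KO and WT, 2184 did so in females, 2306 in males and 2533 for the average. Leaving out arrays in turn gave 1 to 2 members passing between the sexes in WT livers, the second being Alas1 without female WT replicate 1. The 11 same-numbered pairs of KO and WT arrays had correlations of -0.12 to 0.15 after group means were taken away. Of these 1 was over 0.1, and 1 array correlated best with its own number. Such correlations cannot tell whether same-numbered animals shared a litter or were handled together, and the labels do not say so. With the replicate block, 5 members instead of 4 passed between the sexes for the average, Alas1 being added at 1.05 (limma adjusted p = 0.0202), and no other member call changed. Alas1 also passed there with equal array medians (limma adjusted p = 0.05) and with the filter on dim probe sets (limma adjusted p = 0.0395). Ahr between the sexes passed in KO livers with only those groups in the fit (limma adjusted p = 0.0348).

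Sign turned in values that never passed. The difference of the KO effects for Nr1i2 was -0.051 with array weights. With equal array medians, females against males in KO livers was 0.0038 for Hnf4a and 0.0113 for Nr1h4, and KO against WT was 0.0014 for Nr0b2 averaged, 0.0096 for Nr1h4 in females and 0.0018 for Nr1i3 in females. For Nr5a2, quantile normalization gave -0.0225 and the replicate block -0.0043 between the sexes in WT livers, and -0.0204 and -0.0112 between KO and WT males. Nr0b2 averaged was 0.012 with the block. With arrays left out in turn, KO against WT ranged from -0.149 to 0.361 for Alas1, -0.0376 to 0.046 for Nr1h4 and -0.0829 to 0.0371 for Nr1i3 in females, from -0.0714 to 0.0592 for Nr5a2 in males and from -0.0531 to 0.0649 for Nr0b2 averaged. The difference of KO effects ranged from -0.0241 to 0.057 for Nr1i2 and from -0.0058 to 0.114 for Nr1i3. Females against males ranged in KO livers from -0.056 to 0.0205 for Hnf4a and from -0.0478 to 0.0392 for Nr1h4, and in WT livers from -0.0645 to 0.0643 for Nr5a2. The correlation of Nr1i2 with Hnf4a was 0.0153 on values that kept the group means. The cause was not tested.

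Of 1278 member values for KO against WT under the alternatives, 1238 kept direction and side of the threshold, 4 newly passed and 36 turned sign; of 963 between the sexes the numbers were 923, 23 and 13, and 4 no longer passed. Over all probe sets, the 4036 that passed between the sexes for the average became 2236 with a change of at least 20% and 8751 with the plain unadjusted test, and the 31 between KO and WT became 2533 with the latter. No member value lay within the background range.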

Other observations

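Of the 18 probe sets that varied more than Alas1 within groups, 13 had 1 symbol, and Alas1 was set against each of them as deviations from group means over the 23 arrays; this comparison was chosen after the spread of Alas1 had been seen. After adjustment over the 13, Pearson's r passed for 2. Onecut1, which encodes the hepatocyte factor HNF6, had an r of 0.72 and a rho of 0.60 with Alas1 (permutation p = 0.00091 and 0.00746; adjusted p = 0.00676 and 0.0485). Leaving out the 2 arrays farthest out on Alas1 gave an r of 0.70, and r was 0.61 within female KO, 0.59 within female WT and 0.91 within male KO livers. Socs2, a growth hormone-responsive inhibitor of cytokine signalling, had an r of 0.67 and a rho of 0.63 (permutation p = 0.00104 and 0.00402; adjusted p = 0.00676 and 0.0485), with 0.64 after the same omission and 0.38, 0.84 and 0.73 within female KO, female WT and male KO livers. The male WT group of 5 was too small for a value of its own. Cyp26a1, a retinoic acid hydroxylase, had an r of -0.51 and Cish, another inhibitor of cytokine signalling, 0.51, and neither passed (adjusted permutation p = 0.0984 and 0.135). Bcl6, a repressor with a larger spread than Alas1, had an r of -0.30 (adjusted permutation p = 0.612).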
